A study of Mus musculus with 18 samples.

Results

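A set of 7 genes known from the venous side of the brain's vessels was followed across 18 RNA-seq libraries of mouse cortical endothelial cells after experimental stroke: Nr2f2, Ephb4, Slc38a5, Il1r1, Tmsb10, Car4 and Emcn. They were picked by symbol from the deposited table, where all 7 were found among 21638 genes, and all 7 were among the 17094 genes with enough reads to test. The cells were sorted from brain cortex as CD31+ CD41- CD45-, a gate that keeps endothelium and sets aside platelets and leukocytes, and RNA was amplified with a kit for very small inputs (SMART-Seq v4 PLUS). Of the groups, 4 were labelled WT: sham-operated mice, ipsilateral and contralateral side, and mice with a middle cerebral artery occlusion (MCAO), ipsilateral and contralateral side. The other two groups were ipsilateral cells of occluded mice with an endothelial deletion (ECKO in the labels) of Hdac2, a histone deacetylase, or of Ezh2, the histone methyltransferase of Polycomb repressive complex 2. Each of the 6 groups had 3 libraries. Every group, WT included, was labelled with tamoxifen at 75 mg/kg. The same schedule was recorded for all 18 libraries, with 5 doses from day 0 to day 4. The deletion lines were Hdac2lox/lox:Cdh5CreERT2 and Ezh2lox/lox:Cdh5CreERT2, and brains were taken on day 7 after the occlusion. Cdh5 drives this Cre in all endothelium, so the deletion is not limited to veins; whether the WT mice carried the Cre is not given in the sources used here. The labels do not say whether libraries with different numbers came from separate mice, so p-values measure only the spread between these libraries, which may be technical.

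Arteries, capillaries and veins of the brain are lined by endothelial cells that differ in their genes along a gradual scale. Venous identity depends on Nr2f2 (COUP-TFII), an orphan nuclear receptor that represses Notch signalling and arterial genes. It is marked by Ephb4, the receptor tyrosine kinase whose ligand, ephrin-B2 (Efnb2), sits on arteries. The other members have other roles: Slc38a5 is a sodium-coupled neutral amino acid transporter, Il1r1 the signalling receptor for interleukin-1, Tmsb10 a small peptide that binds actin monomers, Car4 a membrane-anchored carbonic anhydrase, and Emcn (endomucin) a surface sialomucin. Several reach beyond veins: Car4 is best known from capillaries, Emcn marks capillaries as well as veins, and Tmsb10 is expressed widely. The libraries hold the whole sorted endothelium, so fewer cells of a kind and less RNA per cell cannot be told apart, and the values do not place any member in a vein.

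Nr2f2 and Car4 stood at opposite ends in both comparisons of the deletion libraries with the occluded ones, and their promoters are shown for that reason. The sequences are the 250 bases before each gene's start (RefSeq, mouse GRCm38.p6), written 5′ to 3′ on the gene's strand. Capitals mark GGAA or TTCC, the core letters of an ETS-factor site on either strand. ETS factors such as Erg and Fli1 are general endothelial transcription factors.
Nr2f2, chr7:70366747-70366996, minus strand: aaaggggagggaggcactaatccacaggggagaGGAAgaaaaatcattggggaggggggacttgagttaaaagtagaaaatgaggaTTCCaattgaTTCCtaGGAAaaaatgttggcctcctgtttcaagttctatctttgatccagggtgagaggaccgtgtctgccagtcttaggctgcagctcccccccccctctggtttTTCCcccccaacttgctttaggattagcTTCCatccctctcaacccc
Car4, chr11:84957504-84957753, plus strand: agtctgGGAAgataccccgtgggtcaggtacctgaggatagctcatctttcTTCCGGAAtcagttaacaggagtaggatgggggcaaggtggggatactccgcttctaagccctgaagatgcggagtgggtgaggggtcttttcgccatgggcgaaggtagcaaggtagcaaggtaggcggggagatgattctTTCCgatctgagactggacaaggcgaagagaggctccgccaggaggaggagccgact

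The Nr2f2 window held 6 GGAA matches, 1 CpG and 50% G or C, and the Car4 window held 4 matches, 11 CpGs and 56.4%. The median over 32851 promoter windows of the same length was 3 matches, 6 CpGs and 52.4%, and 93.4% of windows held at least 1 match, so its presence sets neither gene apart. GGGCGG, the core of an Sp1 site, was searched on both strands too: it occurred in 32.7% of all windows and in neither of these. A match is only a string of letters, not a bound site. The Nr2f2 window overlaps a noncoding exon of B130024G19Rik, transcribed from the opposite strand.

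The 18 libraries held 25791401 to 57576255 counts each and showed between 15428 and 20940 genes. The members were read from many counts: the lowest value was 226 (Nr2f2) and the highest 147500 (Tmsb10). In every library most low counts were even numbers, so counts may exceed the number of independent reads. Levels are given in CPM, counts divided by a library size that was scaled by the trimmed mean of M-values (TMM). Diffuse background was gauged from 1466 olfactory and vomeronasal receptor genes, which work in sensory neurons of the nose and whose summed level ran from 152 to 2083 CPM. Replicate 1 of the MCAO contralateral libraries (1889 CPM) and replicate 2 of the libraries labelled Ezh2 ECKO (2083 CPM) had the most, and their median correlations with the other libraries were 0.868 and 0.888. Calls and counts of members that changed without these 2 libraries are also given, an alternative chosen after seeing the data. The targeted genes were not detectably lower where they should be. Hdac2 differed by -0.11 ± 0.32 (log2, ± standard error) in the libraries labelled Hdac2 ECKO (adjusted p = 0.925), and Ezh2 by 1.05 ± 0.86 in the libraries labelled Ezh2 ECKO (adjusted p = 0.485), each against MCAO ipsilateral. Whole-gene counts cannot show whether the floxed exons were lost, so both groups are called by their labels. Differences were tested with edgeR's quasi-likelihood test over all 17094 genes with Benjamini-Hochberg adjustment, and calls were made under 0.05. This test is behind every adjusted p below unless another is named; unadjusted p-values enter as counts only.

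The members spanned a wide range of abundance. Per kilobase of gene model, mean levels over the 18 libraries were 1806 CPM per kb for Tmsb10, 499 for Car4, 207 for Emcn, 85.2 for Slc38a5, 13.1 for Il1r1, 7.74 for Ephb4 and 3.01 for Nr2f2. The regulator of venous identity was thus the rarest of the 7 and the actin-binding peptide the most abundant. Within a gene, the highest library exceeded the lowest by 7.20-fold for Nr2f2, 7.14-fold for Slc38a5, 7.26-fold for Il1r1, 7.25-fold for Car4 and 6.14-fold for Tmsb10. Ephb4 and Emcn were steadier, at 2.83-fold and 3.14-fold. When the 6 groups were ordered by mean, neighbouring groups overlapped at each of the 5 steps for every member, so no adjacent order is firmer than the spread between libraries.

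**Figure D1:**
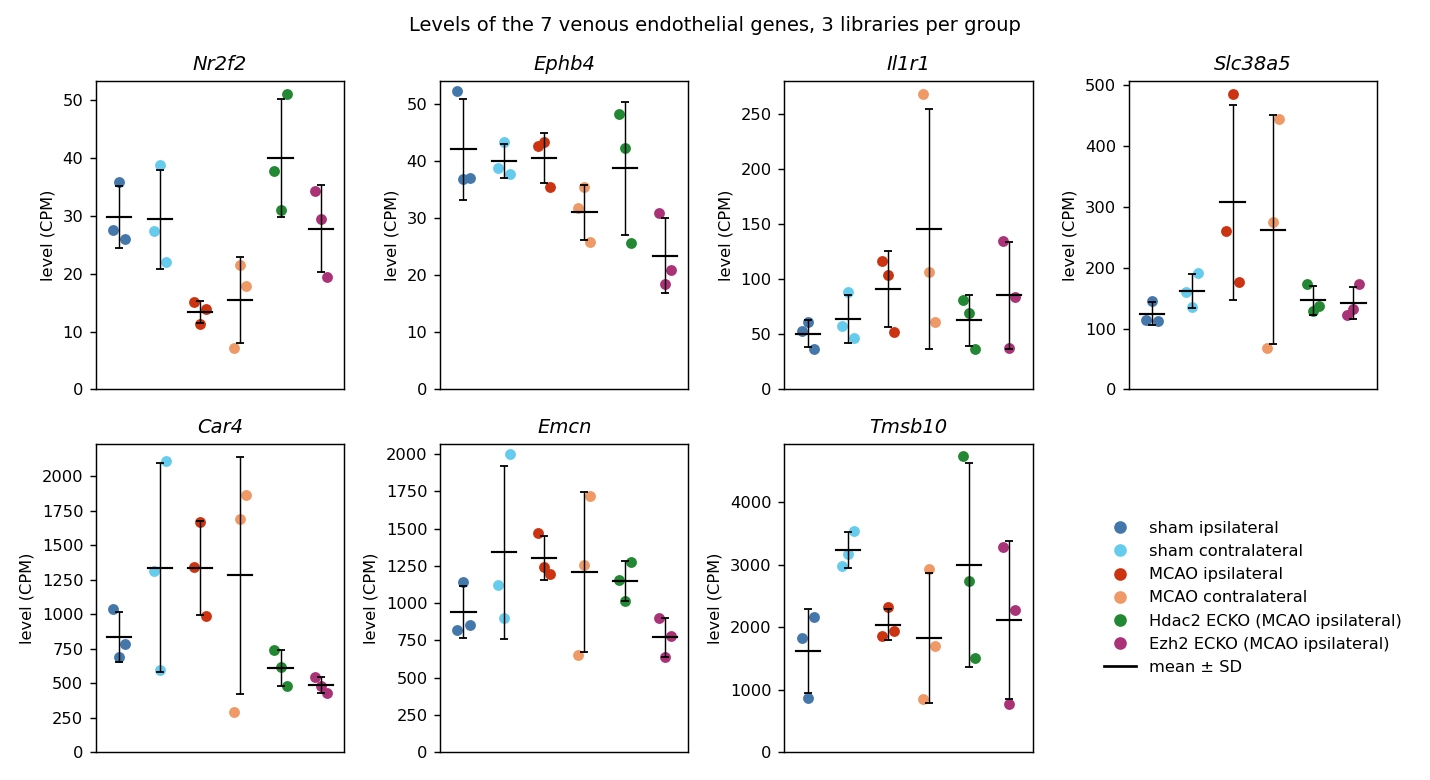
Level of each of the 7 members (vertical axis, CPM, from 0) in the 18 libraries by group; points are libraries and bars the mean ± SD of each group. Nr2f2 has its lowest group mean in MCAO ipsilateral (13.4 CPM), and Slc38a5 has its highest there (308 CPM).

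Nr2f2 lies on chromosome 7 at 70351944-70366735 (minus strand, GRCm38). In the sham libraries it stood at 27.5, 35.8 and 25.9 CPM on the ipsilateral side (29.8 ± 5.33, mean ± SD, n = 3) and at 27.4, 38.8 and 22.0 CPM on the contralateral side (29.4 ± 8.58). After occlusion it stood at 15.0, 11.3 and 13.8 CPM ipsilaterally (13.4 ± 1.91) and at 7.09, 21.4 and 17.8 CPM contralaterally (15.5 ± 7.46). The 6 occluded WT libraries all lay below the 6 sham libraries, narrowly, with 21.4 CPM the highest occluded value and 22.0 CPM the lowest sham value. The share of all genes that separate in this way was not counted. On single sides, occluded libraries lay below sham without overlap for 14.4% of genes ipsilaterally and for 6% contralaterally. In the libraries labelled Hdac2 ECKO it stood at 37.7, 31.0 and 51.1 CPM (39.9 ± 10.2), and in those labelled Ezh2 ECKO at 34.2, 29.5 and 19.5 CPM (27.8 ± 7.54). Both deletion groups lay wholly above the MCAO ipsilateral libraries and overlapped the sham ipsilateral range. An antisense noncoding gene, B130024G19Rik, shares exon bases with Nr2f2 and the strand setting of the counting is not given in the sources used here, so reads of both cannot be told apart.

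Ephb4, on chromosome 5 at 137350109-137378669 (plus strand), varied least. Its levels were 52.2, 36.7 and 37.1 CPM in sham ipsilateral libraries (42.0 ± 8.82) and 38.8, 43.3 and 37.7 CPM in sham contralateral ones (39.9 ± 3.01). Occluded WT mice gave 42.6, 43.4 and 35.4 CPM on the ipsilateral side (40.4 ± 4.40) and 31.8, 35.4 and 25.8 CPM on the contralateral side (31.0 ± 4.86). Only the contralateral set lay below the sham libraries of its side. The libraries labelled Hdac2 ECKO gave 48.2, 42.2 and 25.6 CPM (38.7 ± 11.7), and those labelled Ezh2 ECKO 30.8, 18.4 and 20.9 CPM (23.4 ± 6.57), the lowest group mean. Zan overlaps Ephb4 on the other strand, with at most 215 counts in a library against at least 647 for Ephb4.

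Slc38a5, on the X chromosome at 8271133-8280179 (plus strand), varied widely after occlusion. Sham libraries gave 113, 146 and 113 CPM ipsilaterally (124 ± 19.0) and 159, 135 and 192 CPM contralaterally (162 ± 28.2). MCAO libraries gave 261, 486 and 176 CPM ipsilaterally (308 ± 160) and 68.1, 274 and 445 CPM contralaterally (262 ± 189). All MCAO ipsilateral values exceeded the sham ipsilateral ones, whereas the contralateral values lay on both sides of sham. Libraries labelled Hdac2 ECKO stood at 174, 129 and 137 CPM (146 ± 23.7) and those labelled Ezh2 ECKO at 123, 132 and 173 CPM (142 ± 26.6), both below every MCAO ipsilateral library.

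Il1r1, on chromosome 1 at 40225080-40317257 (plus strand), overlapped between groups in all 7 comparisons of 2 groups. It stood at 52.8, 61.2 and 37.0 CPM in sham ipsilateral libraries (50.3 ± 12.3) and at 57.3, 88.4 and 46.5 CPM in sham contralateral ones (64.1 ± 21.8). After occlusion the values were 117, 104 and 52.3 CPM ipsilaterally (91.1 ± 34.2) and 269, 106 and 61.6 CPM contralaterally (145 ± 109). The 269 CPM came from the high-background replicate 1. Libraries labelled Hdac2 ECKO gave 81.4, 69.5 and 37.0 CPM (62.6 ± 23.0) and those labelled Ezh2 ECKO 135, 37.1 and 84.1 CPM (85.4 ± 48.9), which spans nearly the whole range of the other ipsilateral groups.

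Tmsb10, on chromosome 6 at 72957347-72958748 (minus strand), gave 1833, 870 and 2157 CPM in sham ipsilateral libraries (1620 ± 670) and 2986, 3177 and 3542 CPM in sham contralateral ones (3235 ± 282). MCAO libraries stood at 1859, 2322 and 1940 CPM ipsilaterally (2040 ± 247) and at 848, 2927 and 1700 CPM contralaterally (1825 ± 1045). The sham contralateral libraries lay above all 9 of these other WT libraries, and how many genes do so was not counted. Sham contralateral lay above sham ipsilateral without overlap for 6.98% of genes, and above MCAO contralateral for 6%. Values of 4738, 2739 and 1502 CPM (2993 ± 1633) came from the libraries labelled Hdac2 ECKO and of 3286, 772 and 2269 CPM (2109 ± 1264) from those labelled Ezh2 ECKO. The gene is uncertain: a near-copy, Gm9844, contains 78.1% of its 461 stretches of 25 bases in Tmsb10 as well and took 14.4 to 16.1% of their joint counts, so reads could be split between them.

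Car4, on chromosome 11 at 84957786-84966044 (plus strand), stood at 1039, 687 and 784 CPM in sham ipsilateral libraries (837 ± 182) and at 1311, 595 and 2108 CPM in sham contralateral ones (1338 ± 757). Occlusion libraries gave 1342, 1669 and 990 CPM ipsilaterally (1334 ± 339) and 291, 1688 and 1866 CPM contralaterally (1281 ± 863). The lowest library, at 291 CPM, was again the high-background replicate 1. Libraries labelled Hdac2 ECKO gave 738, 619 and 480 CPM (612 ± 129) and those labelled Ezh2 ECKO 547, 476 and 432 CPM (485 ± 58.1). All 6 deletion libraries lay below every MCAO ipsilateral library.

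Emcn, on chromosome 3 at 137341067-137432185 (plus strand), gave 822, 1139 and 854 CPM in sham ipsilateral libraries (938 ± 174) and 1119, 903 and 2002 CPM in sham contralateral ones (1341 ± 582). In MCAO libraries it stood at 1472, 1243 and 1194 CPM ipsilaterally (1303 ± 149) and at 653, 1253 and 1722 CPM contralaterally (1209 ± 536). The MCAO ipsilateral values all lay above the sham ipsilateral ones. Libraries labelled Hdac2 ECKO gave 1159, 1013 and 1278 CPM (1150 ± 133) and those labelled Ezh2 ECKO 900, 639 and 778 CPM (772 ± 131), so only the latter were wholly below MCAO ipsilateral.

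The first comparison asked how the ipsilateral endothelium of occluded mice differed from that of sham mice. No member was called. Nr2f2 was 2.22-fold lower (log2 -1.15 ± 0.43, adjusted p = 0.630) and Slc38a5 2.48-fold higher (1.31 ± 0.46, adjusted p = 0.588), in each case with no overlap between the groups. Emcn also did not overlap, at a smaller difference of 0.47 ± 0.35 (adjusted p = 0.783). Il1r1 (0.86 ± 0.51), Car4 (0.67 ± 0.49) and Tmsb10 (0.33 ± 0.49) pointed upward with overlapping libraries, and Ephb4 differed by -0.05 ± 0.35, with a 95% interval from -0.74 to 0.63.

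Read against all genes, such differences were common. None of the 17094 genes was called in that comparison (0%), while 7.08% had an unadjusted p under 0.05 (4.26% higher and 2.81% lower), beside 2 of 7 members, 1 in each direction. Groups did not overlap for 27.7% of genes (13.3% higher and 14.4% lower), beside 2 members higher and 1 lower. The unadjusted count was 2 members higher and 1 lower without the 2 libraries with the most background, beside 14% of genes. With DESeq2 69 genes were called and with only the compared groups in the fit 74, and no member was among them in either. The Slc38a5 difference leaned on replicate 2 of MCAO ipsilateral, the highest library: without it the difference was 0.82, and with the background level as a covariate 0.79. Microglia markers, which should be scarce after the sort, summed to 34.2 to 43.7 CPM in sham ipsilateral and 83.9 to 88.2 CPM in MCAO ipsilateral libraries, and the summed pan-endothelial markers (led by Ly6c1) to between 9482 and 12504 CPM and between 15284 and 24808 CPM. Pericyte and smooth muscle markers went the other way, from 104 to 162 CPM in sham and from 38.1 to 103 CPM after occlusion. Of the tested markers, 7 of 8 of microglia stood higher and 8 of 9 of pericytes and smooth muscle lower, the 10 pan-endothelial ones split 5 and 5, none was called, and no marker of these lists was at 0 in all 3 libraries of either group. Their part in the members' values was not tested.

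Taking both sides together gave 6 libraries against 6, a comparison chosen after seeing the data. The labels do not say whether the sides came from the same mice, and the fit treated all libraries as independent. In this comparison Nr2f2 stood at -1.04 ± 0.31 (adjusted p = 0.204) and Slc38a5 at 1.00 ± 0.32 (adjusted p = 0.248), with Il1r1 at 1.02 ± 0.36 (adjusted p = 0.318). None of the 7 was among the 26 genes called (0.152%). Without the 2 libraries with the most background 498 of 15641 genes were called and Slc38a5 was one of them (1.21 ± 0.24, adjusted p = 0.0154). Nr2f2 then stood at -0.88 ± 0.26 (adjusted p = 0.0617), just outside the threshold.

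On the contralateral side, occluded against sham, Nr2f2 was again lower without overlap (-0.93 ± 0.43, adjusted p = 0.920). Ephb4 (-0.37 ± 0.35) and Tmsb10 (-0.83 ± 0.50) were lower without overlap too. Il1r1 was higher by 1.18 ± 0.51 (adjusted p = 0.920), a value that rested on the high-background replicate 1: without it the difference was 0.42. Slc38a5 stood at 0.69 ± 0.46 with overlap, and moved between 0.08 without replicate 3 of MCAO contralateral and 1.17 without replicate 1. No gene was called (0%). An unadjusted p under 0.05 was reached by 4.41% of genes (2.65% higher, 1.76% lower), beside 1 member in each direction, and 9.65% did not overlap (3.65% higher, 6% lower), beside 3 members, all lower. Only 2 of the 7 members pointed upward, with a median of -0.15 where the median of all genes was 0.17. Without the 2 libraries with the most background Car4 (0.40) and Emcn (0.14) pointed upward as well. The unadjusted threshold was then passed by 1 member, higher, beside 9.6% of genes, and 1 member higher and 3 lower did not overlap, beside 33.6%. Replicate 1 of MCAO contralateral weighed on other members too: without it Nr2f2 stood at -0.56 and Tmsb10 at -0.46, and without replicate 2 Tmsb10 stood at -1.35.

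Markers of other cells also moved on this side. All 9 tested pericyte and smooth muscle markers stood lower after occlusion (median -1.72), and their list summed to 99.7 to 198 CPM in sham contralateral and 14.6 to 66.9 CPM in MCAO contralateral libraries, with Cnn1 at 0 in all 3 of the sham ones. Of the 8 tested microglia markers 6 stood higher (median 1.75), with sums of 46.1 to 63.9 and 37.9 to 93.6 CPM and C1qa at 0 in all 3 sham contralateral libraries. None of these markers was called, and their part in the members' values was not tested.

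No member was called between the sides. In occluded mice Ephb4 was higher on the ipsilateral side without overlap (0.38 ± 0.35), while 5.37% of all genes did not overlap (3.49% higher). All 7 adjusted p-values were 1, 0% of genes were called, and 3.08% had an unadjusted p under 0.05, beside 0 members. The sign turned for 6 of the 7 members, Ephb4 excepted, when 1 library or another was left out. Between the occluded sides, 1 member higher and 2 lower did not overlap once the 2 libraries with the most background were left out, beside 18.9% of genes. Between the sham sides Tmsb10 was lower ipsilaterally without overlap (-0.998 ± 0.50), beside 15.4% of all genes without overlap (8.44% higher, 6.98% lower). The remaining members overlapped there, 0% of genes were called, and 1.85% of genes (1.15% lower), beside 0 members, passed the unadjusted threshold. Without the same 2 libraries 1 member, lower, passed it, beside 5.65% of genes. For the difference between the 2 side contrasts, Tmsb10 stood farthest from 0 (1.16 ± 0.70, adjusted p = 0.941). No member passed the unadjusted threshold, beside 3.38% of genes (3.12% lower), and 0% were called. A response of the injured side beyond the opposite side was thus not detectable at this number of libraries, in a fit without paired sides. The 95% interval for Nr2f2 ran from -1.41 to 0.96 and for Slc38a5 from -0.65 to 1.88.

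**Figure D2:**
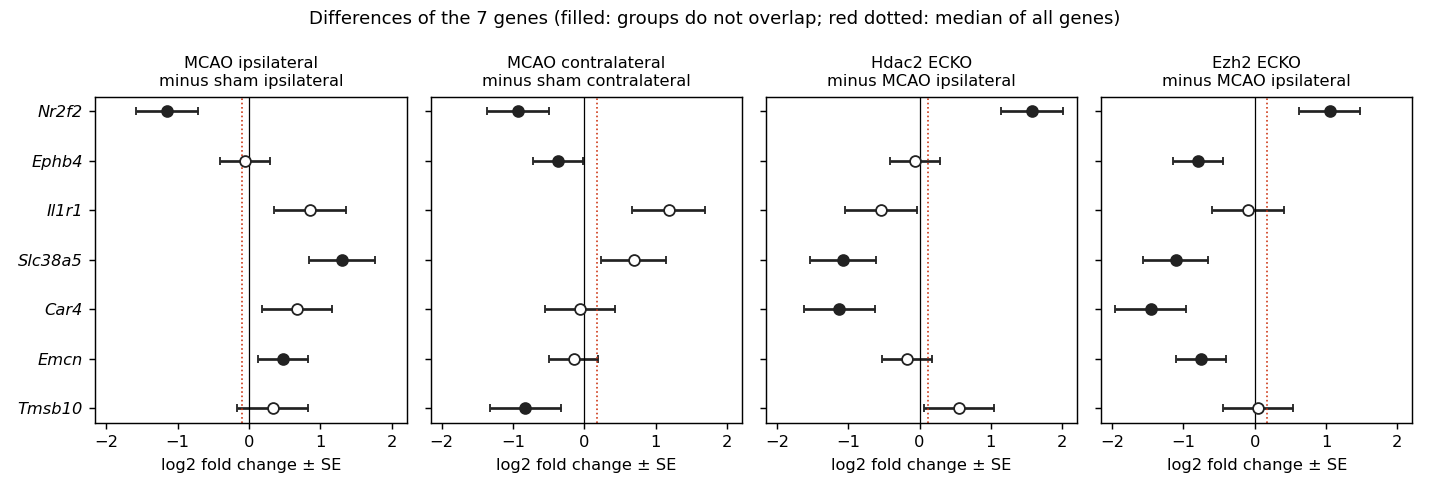
Difference of each member on the log2 scale (horizontal axis, log2 fold change; bars are ± standard error) in the 4 comparisons named above the panels; filled points mark groups that do not overlap and the dotted line the median of all genes. Nr2f2 stands at -1.15 after occlusion and at 1.58 and 1.05 in the Hdac2 ECKO and Ezh2 ECKO panels, where Car4 stands at -1.12 and -1.46.

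Libraries labelled Hdac2 ECKO were then set against the MCAO ipsilateral libraries of WT mice. Nr2f2 was 2.98-fold higher (log2 1.58 ± 0.44, adjusted p = 0.306), while Slc38a5 was 2.10-fold lower (-1.07 ± 0.46, adjusted p = 0.473) and Car4 2.18-fold lower (-1.12 ± 0.49, adjusted p = 0.479). The groups did not overlap for any of the 3, and none was called. Ephb4 (-0.06 ± 0.35), Emcn (-0.18 ± 0.35), Il1r1 (-0.54 ± 0.51) and Tmsb10 (0.55 ± 0.50) overlapped between the groups. The 95% interval for Ephb4 was -0.75 to 0.62, which leaves room for a difference of either sign.

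In that comparison 0.0117% of genes (2 genes, both higher) were called. The unadjusted threshold was passed by 9.85% of genes (4.61% higher, 5.24% lower), beside 1 member higher and 2 lower. Groups did not overlap for 19.9% (9.54% higher, 10.3% lower), beside the same 1 and 2 members. For Nr2f2 the call depended on the fit. DESeq2 called it (1.67, adjusted p = 0.00555, among 244 genes or 1.74%), and so did edgeR without the 2 libraries with the most background (1.60 ± 0.34, adjusted p = 0.0486, among 62 genes or 0.396%), neither of which is in either group compared. Without any one library of the compared groups the Nr2f2 difference lay between 1.32 and 1.67 and was not called. Libraries of the other groups were not left out singly for this comparison. For Slc38a5 it was -0.58 without replicate 2 of MCAO ipsilateral, and for Tmsb10 0.02 without replicate 1 of the deletion group.

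The libraries labelled Ezh2 ECKO did not overlap with the same MCAO ipsilateral libraries in 5 of the 7 members. Nr2f2 was 2.07-fold higher (1.05 ± 0.43, adjusted p = 0.190). Car4 was 2.75-fold lower (-1.46 ± 0.50, adjusted p = 0.120), Slc38a5 2.16-fold (-1.11 ± 0.46, adjusted p = 0.192), Ephb4 1.73-fold (-0.79 ± 0.35, adjusted p = 0.225) and Emcn 1.69-fold (-0.76 ± 0.35, adjusted p = 0.244). All 5 had unadjusted p-values under 0.05, and none was called. Il1r1 (-0.09 ± 0.50) and Tmsb10 (0.05 ± 0.49) overlapped between the groups.

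Such differences were frequent among all genes here too: 1.46% of genes (250) were called, 39 higher and 211 lower, 19.2% had an unadjusted p under 0.05 (8.51% higher, 10.7% lower) and 29% did not overlap (13.6% higher, 15.3% lower). The members gave 0 calls, and by either of the other counts 1 was higher and 4 were lower. Without the 2 libraries with the most background, 1 member higher and 2 lower had an unadjusted p under 0.05, beside 23.5% of genes, and 2 higher and 3 lower did not overlap, beside 40.9%. The median of the members was -0.76 and that of all genes 0.17; under the other scaling tried (relative log expression) the all-gene median was 0.36, and it moved by over 0.1 in 5 of the 8 comparisons. DESeq2 called Nr2f2 (1.24, adjusted p = 0.0242), among 1642 genes or 11.7%. The edgeR fit on the compared groups alone called Car4 (-1.33, adjusted p = 0.0444), among 485 genes or 3.49%. The 250 genes called became 5 without replicate 1 or without replicate 2 of MCAO ipsilateral, 24 without replicate 2 and 8 without replicate 3 of the deletion group, 12 with the replicate number as a block and 13 with the background level as a covariate. Without the 2 libraries with the most background, one of which belongs to this group and leaves it with 2, Car4 was called too (-1.42 ± 0.41, adjusted p = 0.0451), among 1000 genes or 6.39%. With the background level as a covariate Car4 stood at -0.51 and Slc38a5 at -0.30, and without replicate 2 of MCAO ipsilateral Slc38a5 stood at -0.62.

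Both comparisons with the deletion libraries and the occlusion comparison use the same 3 MCAO ipsilateral libraries, which enter the occlusion comparison with the opposite sign. Nr2f2 was at -1.15, 1.58 and 1.05 in the 3 comparisons (occlusion, Hdac2 ECKO, Ezh2 ECKO), Slc38a5 at 1.31, -1.07 and -1.11, and Car4 at 0.67, -1.12 and -1.46. Because of the shared libraries these values are set side by side only. Red cell markers, which the sort should remove, summed to between 38268 and 65450 CPM in MCAO ipsilateral libraries, to between 49334 and 297898 CPM in those labelled Hdac2 ECKO and to between 71.0 and 671 CPM in those labelled Ezh2 ECKO. Pan-endothelial markers summed to between 10249 and 14829 CPM in Hdac2 ECKO and between 6581 and 10318 CPM in Ezh2 ECKO libraries, below the MCAO ipsilateral range given above. That sum is led by Ly6c1. Of the 10 markers 4 stood higher and 6 lower than in MCAO ipsilateral, both in Hdac2 ECKO and in Ezh2 ECKO libraries. Microglia markers gave 61.2 to 80.8 and 48.8 to 61.2 CPM in the same order, and pericyte and smooth muscle markers 20.6 to 69.3 and 26.7 to 168 CPM. Of the 7 red cell markers 6 stood lower and 1 higher in the libraries labelled Ezh2 ECKO, and 5 were called lower. The pan-endothelial marker Ly6c1 was called lower there too, while in the libraries labelled Hdac2 ECKO no marker of these 4 lists was called. The part of these cells in the members' differences was not tested.

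Set directly against each other, the libraries labelled Hdac2 ECKO exceeded those labelled Ezh2 ECKO in 6 of the 7 members, and no member was called. The median of the members was 0.51, beside -0.15 for all genes. With 1 library left out, the sign turned in 3 of 6 refits for Slc38a5 and in 1 of 6 each for Il1r1 and Tmsb10. Emcn was higher without overlap (0.57 ± 0.35), where 12.1% of all genes did not overlap (6.87% higher), and 11.2% passed the unadjusted threshold beside 0 members. Ephb4 had the lowest p (0.73 ± 0.35, 95% interval 0.04 to 1.42, adjusted p = 0.450). Nr2f2 differed by 0.53 (95% interval -0.31 to 1.36), Slc38a5 by 0.04 (-0.85 to 0.93) and Car4 by 0.34 (-0.62 to 1.29). Nr2f2 stood at 0.29 without replicate 3 of the libraries labelled Hdac2 ECKO, and Car4 at 0.13 without replicate 1 of them. With the 2 libraries of most background left out, 1 member higher and 1 lower did not overlap, beside 21.6% of genes. Tmsb10, at 0.51 ± 0.50, stood at -0.03 without replicate 1 of the libraries labelled Hdac2 ECKO and at 0.98 without replicate 1 of those labelled Ezh2 ECKO. In this comparison 0.123% of genes (21) were called.

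Other genes of the venous, arterial and capillary programmes, chosen with earlier results of these data known, give the setting. After occlusion the median difference of 11 other venous genes was 0.35, that of 21 arterial genes -0.28 and that of 12 capillary genes -0.03, beside 0.47 for the members and -0.09 for all genes, with none called. In the libraries labelled Hdac2 ECKO 18 of the 21 arterial genes stood higher than in MCAO ipsilateral (median 0.61), and none was called. The 11 other venous genes split 5 higher and 6 lower (median -0.79, all genes 0.11), with 2 higher and 1 lower at the unadjusted threshold and none called. In those labelled Ezh2 ECKO the medians were 0.01 for the other venous genes, 0.21 for arterial and 0.14 for capillary genes.

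From these lists, 1 of the 11 other venous genes (Lcn2) and 1 of the 21 arterial genes (Alpl) were called in the libraries labelled Ezh2 ECKO against MCAO ipsilateral. Both were lower, beside 1.46% of all genes called (1.23% lower). Lcn2, a secreted siderophore-binding protein on the venous list, stood at 58.2, 61.3 and 32.1 CPM in MCAO ipsilateral libraries and at 2.32, 0 and 0.0559 CPM in those labelled Ezh2 ECKO (-5.99 ± 1.09, adjusted p = 0.0208); 2 of the latter lay under 3 counts, so the fitted size is uncertain. Alpl, an alkaline phosphatase on the arterial list, fell from 83.3, 58.3 and 61.9 CPM to 23.1, 23.9 and 17.1 CPM (-1.67 ± 0.37, adjusted p = 0.0361). Lcn2 was also low in both sham groups (1.36 to 4.63 CPM) and at 13.8, 23.8 and 8.53 CPM in libraries labelled Hdac2 ECKO. Alpl (2.03 ± 0.38, adjusted p = 0.0300) and the arterial gene Gkn3 (2.37 ± 0.43, adjusted p = 0.0296) were higher in libraries labelled Hdac2 ECKO than in those labelled Ezh2 ECKO, with Gkn3 at 540, 545 and 561 CPM against 165, 64.5 and 89.5 CPM. These were 2 of the 21 arterial genes, beside 0.123% of all genes called, and no gene of the venous list was called there. Whether the calls of these listed genes hold in the alternative fits was not checked.

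**Figure D3:**
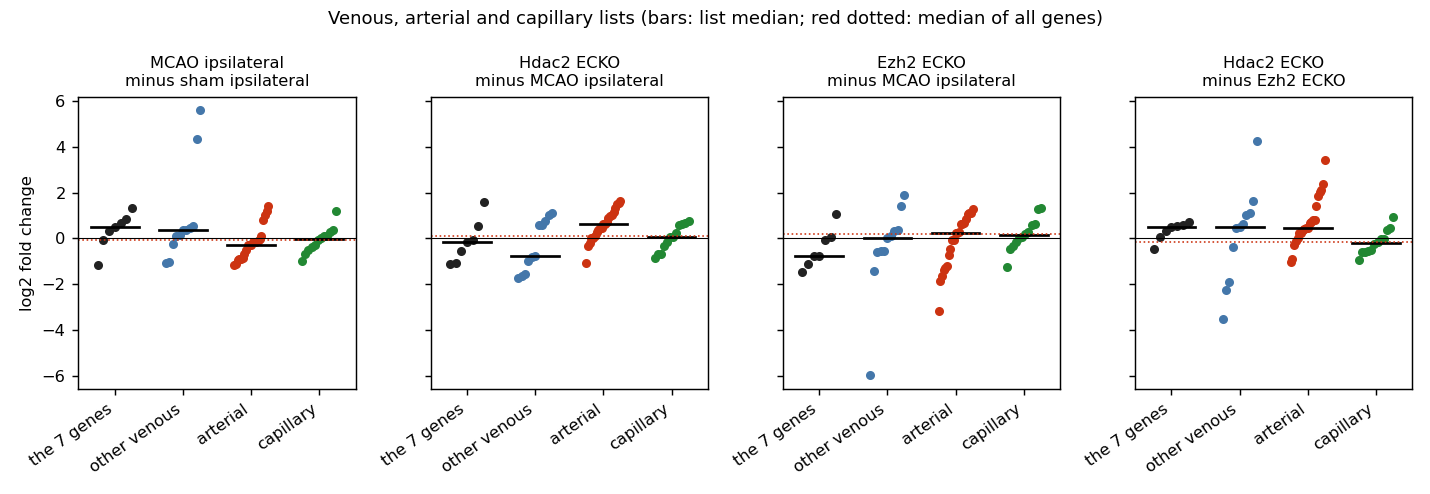
Median difference (vertical axis, log2 fold change) of the 7 members, 11 other venous, 21 arterial and 12 capillary genes, with single genes as points, in 4 comparisons; the dotted line is the median of all genes. Arterial genes have a median of 0.61 in the panel of Hdac2 ECKO minus MCAO ipsilateral, and the members -0.76 in those labelled Ezh2 ECKO.

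Ligands, co-receptors and relatives of the members were given by a list of 36 genes, of which 35 had enough reads to test. It held the COUP factors Nr2f1 and Nr2f6, the ephrins and other EphB receptors, sister amino acid transporters of the Slc38 family, the interleukin-1 ligands, decoy and adaptors, thymosin beta 4 and actin, other carbonic anhydrases with the bicarbonate transporter Slc4a4, and the sialomucins Cd34, Podxl and Cd164. None of the 35 was called higher or lower in any of the 8 comparisons. At the unadjusted threshold 4 stood higher and 2 lower in libraries labelled Hdac2 ECKO against MCAO ipsilateral, and 4 higher and 4 lower in those labelled Ezh2 ECKO. Their medians were 0.26 and 0.09, beside 0.11 and 0.17 for all genes. After occlusion 19 pointed upward and 16 downward, with a median of 0.04.

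Across the 18 libraries some members ran closer together than others. Car4, Emcn and Slc38a5 ran together (Pearson r of log2 levels 0.79 for Car4 with Emcn, 0.76 for Slc38a5 with Car4 and 0.69 for Slc38a5 with Emcn), and did so with the group means removed (0.78, 0.82 and 0.71). Nr2f2 stood at -0.17 with Car4, -0.23 with Slc38a5 and 0.00 with Emcn, but at 0.34, 0.42 and 0.39 with the group means removed. With Il1r1 it stood at -0.54, and at -0.32 with the group means removed. These are descriptions over libraries that share depth and background. Levels of Car4, Tmsb10, Emcn and Slc38a5 were lower in libraries with more diffuse background (r = -0.80, -0.77, -0.71 and -0.69), Ephb4 less so (-0.56), and Nr2f2 and Il1r1 hardly (-0.03 and -0.00).

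**Figure D4:**
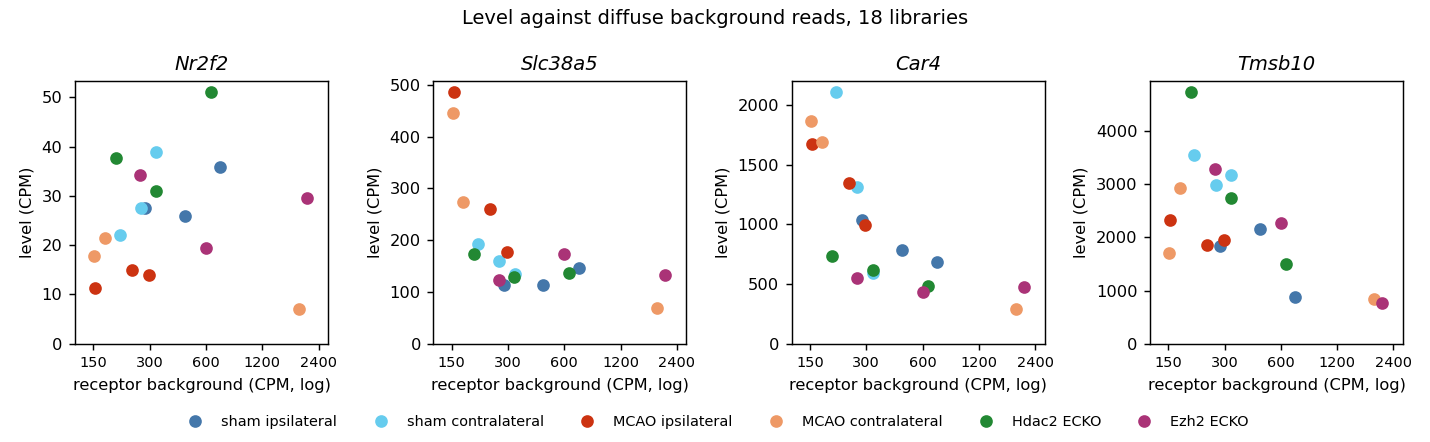
Level of Nr2f2, Slc38a5, Car4 and Tmsb10 (vertical axes, CPM, from 0) against the summed receptor background of each of 18 libraries (horizontal axis, CPM, log scale), coloured by group. Car4 and Tmsb10 are lower in libraries with more background (r = -0.80 and -0.77), while Nr2f2 shows no such slope (r = -0.03).

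Among 7813 other genes whose mean reached 10 CPM, the closest in pattern over the 18 libraries, by Pearson r of log2(CPM + 1), were different for each member. Nr2f2 was nearest to Mtf2 (0.922) and Zfp292 (0.893), Ephb4 to Aff1 (0.811) and Pdxk (0.806), and Slc38a5 to Rhoa (0.920) and Copz1 (0.908). Il1r1 was nearest to Tmeff1 (0.814) and Osbpl9 (0.810), Car4 to Vti1b (0.954) and Mgst3 (0.946), and Emcn to Vdac3 (0.916) and Clns1a (0.897). For Tmsb10 they were its near-copy Gm9844 (0.998) and Atox1 (0.962). No other member was among any member's 2 nearest genes.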

How the data were processed

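Counts per gene were deposited by the authors as 1 table of 21638 genes in 18 libraries (6 groups of 3). Although the table's name calls the deposited counts normalized, they are whole numbers whose totals differ between libraries, and they were used as unscaled counts. Among the low counts of a library, between 77.3 and 89.4% were even numbers. The reason was not tested. Totals, count thresholds and single counts may therefore overstate the number of independent reads. The submitters' processing notes name FastQC, cutadapt, STAR, featureCounts, DESeq2 and the build mm10, without roles or settings. Gene positions are those of the table.

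Genes with at least 10 counts in at least 3 libraries were kept (17094). They were tested with edgeR 4.0.16 (R 4.3.3, limma 3.58.1; TMM scaling, quasi-likelihood F-test, 1 fit of 6 group means), with Benjamini-Hochberg adjustment over all genes kept. Standard errors are the difference divided by the root of F, and 95% intervals use 1.96 of them, which makes them narrower than the test. The common biological coefficient of variation was 0.774. On simulated counts for the libraries labelled Ezh2 ECKO against MCAO ipsilateral, the test recovered 39% of 200 genes changed by a log2 of 2 (16502 genes run) and 97% of those changed by 4 (16521 genes run).

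Alternatives were relative log expression (RLE) scaling, no filter, a replicate block, a background covariate, the compared groups only, DESeq2 1.42.0 and leaving out each library of the compared groups in turn. The members and gene lists were chosen with earlier results of these data known. All 7 members are named; from each related list, at most 2 called genes, those of smallest adjusted p; and for likeness the 2 genes of highest r. No pair of libraries within a group agreed within sampling noise, and pairs across groups were not checked in this way. Sequences come from RefSeq promoter windows, in which all 7 members were matched; windows end at the gene's start.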

Additional observations from a re-analysis of the deposited data

How the results depend on the processing

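With 3 libraries a group, a common coefficient of variation of 0.774 and only 39% of simulated log2 changes of 2 recovered, differences of the members' size could be missed. Of 56 member differences, the sign turned in 3 under RLE scaling, 2 without the filter, 1 with the replicate block, 5 with the background covariate, 1 with the compared groups only, 3 with DESeq2 and 10 without the 2 libraries with the most background. The causes were not tested.

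The replicate numbers were not taken to pair the libraries, because the labels do not say that a number marks a mouse. Over 45 same-number pairs, the correlation of deviations from the group means ran from -0.439 to 0.411 (median -0.0488), against a median of 0.0137 over 90 pairs of different numbers. Most of these 45 pairs join different treatments or genotypes, so they cannot show whether the sides of a mouse are paired. For the sides within a treatment, same-number pairs gave 0.376, 0.350 and -0.127 in sham and 0.294, 0.393 and 0.0347 in MCAO libraries. Of these 6, 4 were over 0.1 and 2 were not, against 4 of 12 pairs of different numbers, with medians of 0.322 and -0.163. So few pairs do not settle whether the sides are paired. With the replicate block 12 genes were called in Ezh2 ECKO minus MCAO ipsilateral and 9 in Hdac2 ECKO minus Ezh2 ECKO. The block left 0 members called in every comparison and turned Tmsb10 in the first of these to -0.015.

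Genes called in MCAO ipsilateral minus sham ipsilateral were 0 in the reported fit, 2 without the filter, 1 with the covariate, 74 with the compared groups only, 69 with DESeq2, 13 without the 2 libraries and 26 over both sides. DESeq2 called 6 genes between the occluded sides, 26 contralaterally, 6 between the sham sides and 6 for the difference of sides, where the compared groups only gave 1; contralaterally 1 gene was called without the 2 libraries. In Hdac2 ECKO minus MCAO ipsilateral, the counts were 4 with RLE, 10 with the covariate, 0 with the compared groups only, 244 with DESeq2 and 62 without the 2 libraries. In Ezh2 ECKO minus MCAO ipsilateral they were 13 with the covariate, 485 with the compared groups only, 1642 with DESeq2 and 1000 without the 2 libraries. Hdac2 ECKO minus Ezh2 ECKO gave 38 without the filter, 54 with the covariate, 659 with DESeq2 and 115 without the 2 libraries. Of the members, 1 was called by DESeq2 (Nr2f2) in each deletion comparison, 1 with the compared groups only (Car4, Ezh2 ECKO), and 1 without the 2 libraries in each (Nr2f2 in Hdac2 ECKO, Car4 in Ezh2 ECKO).

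Signs turned for Tmsb10 after occlusion (-0.19 with the covariate, -0.25 over both sides) and between the occluded sides (-0.13 with the covariate). Ephb4 turned in Hdac2 ECKO minus MCAO ipsilateral (0.0035 with RLE, 0.0599 without the filter, 8.4e-05 with the covariate, 0.0035 with DESeq2), and Il1r1 in Ezh2 ECKO minus MCAO ipsilateral (0.0351 with RLE, 0.0396 without the filter, 0.0351 with DESeq2, 0.29 without the 2 libraries). In Hdac2 ECKO minus Ezh2 ECKO, Slc38a5 turned (-0.0802 with RLE and DESeq2, -0.45 with the covariate, -0.0555 with the compared groups only, -0.0221 without the 2 libraries) and Car4 (-0.29 with the covariate). Without the 2 libraries, the occluded sides differed by -0.22 (Slc38a5), 0.12 (Il1r1), -0.18 (Tmsb10), -0.41 (Car4) and -0.19 (Emcn), the contralateral comparison gave 0.40 (Car4) and 0.14 (Emcn), and the difference of sides 0.45 (Il1r1).

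Leaving out 1 library of the compared groups at a time called 0 members in every comparison and turned the sign in 34 of 378 refits. Genes called ranged from 0 to 1 contralaterally, from 0 to 18 in Hdac2 ECKO and from 5 to 298 in Ezh2 ECKO minus MCAO ipsilateral, and from 9 to 73 in Hdac2 ECKO minus Ezh2 ECKO. Differences that turned ranged as follows. After occlusion, Ephb4 ranged from -0.14 to 0.16. Between the occluded sides, ranges were -0.57 to 0.0791 (Nr2f2), -0.26 to 0.85 (Slc38a5), -1.04 to 0.10 (Il1r1), -0.21 to 0.66 (Tmsb10), -0.43 to 0.43 (Car4) and -0.21 to 0.45 (Emcn). Contralaterally they were -0.44 to 0.45 (Car4) and -0.49 to 0.27 (Emcn), between the sham sides -0.18 to 0.27 (Nr2f2) and -0.13 to 0.16 (Ephb4), and for the difference of sides -0.58 to 0.10 (Nr2f2) and -0.69 to 0.46 (Il1r1). In Hdac2 ECKO minus MCAO ipsilateral, Ephb4 ranged from -0.29 to 0.12. In Ezh2 ECKO minus MCAO ipsilateral, Il1r1 ranged from -0.59 to 0.23 and Tmsb10 from -0.42 to 0.42. In Hdac2 ECKO minus Ezh2 ECKO, ranges were -0.15 to 0.18 (Slc38a5), -0.82 to 0.0458 (Il1r1) and -0.0326 to 0.98 (Tmsb10).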
